A study of Homo sapiens with 14 samples.

Results

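FGFR1, PTK2, GIT1 and PDGFB are 4 genes of growth factor and adhesion signalling, out of 57756 genes in the deposited tables, that were chosen by the change of their isoform levels after depletion of the splicing factor U2AF1. The choice used isoform levels after the knockdown and with re-expression, across all treatments. For these genes, the knockdown against its control and re-expression against the knockdown are thus a description and carry no test here. The cells were A549, an established human lung carcinoma line, grown as an adherent culture with serum. RNA was sequenced from 14 libraries in 7 groups of 2, which were untreated cells, a negative control (control siRNA plus empty vector), the knockdown (U2AF1 siRNA plus empty vector), and 4 groups of knockdown cells infected with virus carrying U2AF1. The constructs were v1 wild type, v1 S34F, v3 wild type and v3 S34F, where v1 and v3 are U2AF1 isoforms and S34F is a mutation found in cancers, and all 4 groups therefore carried the siRNA as well as an excess of U2AF1. The labels do not say whether replicates were separate cultures, and p-values thus measure a spread that may be technical.

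U2AF1 is the small subunit of the factor that recognizes the end of an intron, where its large partner binds the pyrimidine tract and U2AF1 contacts the AG of the 3′ splice site (the acceptor). FGFR1 is a receptor tyrosine kinase for fibroblast growth factors. PDGFB is the B chain of platelet-derived growth factor, a secreted ligand that acts through PDGF receptors and through them on Ras, PI3-kinase and adhesion kinases. PTK2 encodes focal adhesion kinase, which is recruited to integrin contacts and relays signals from both integrins and growth factor receptors. GIT1 is a GTPase-activating protein for ARF GTPases and a scaffold that brings PIX and PAK proteins to focal adhesions and binds focal adhesion kinase.

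Levels are in FPKM, fragments per kilobase of transcript scaled to library size, and a gene's level is the sum over its isoforms. Usage is an isoform's percentage of that sum. The share of an exon is the summed FPKM of the isoforms that hold it as a percentage of the summed FPKM of all isoforms of the gene that span it, taking exons from GENCODE release 29. The exons were picked after the isoform values had been seen, so their shares are given with no test. Means are ± SD with n = 2 libraries, and adjusted p-values are from limma with the Benjamini-Hochberg method over all genes or isoforms tested.

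Relative depth lay between 0.802 and 1.20 over the 14 libraries, and the absolute number of reads is unknown. A short isoform of AL132768.1 took 33.1% of the FPKM sum in replicate 2 of v1 S34F, while in knockdown replicate 1 MIR1260B took 8.81%, against 0.494% to 1.06% for the top isoform of the other 12 libraries. U2AF1 itself, at 127.7 and 142.5 FPKM in untreated cells, stood at 116.9 and 118.9 FPKM with the control siRNA and at 16.2 and 28.9 with the siRNA against it. The 8 construct libraries held 2114 to 3852 FPKM of U2AF1. Markers of A549 and lung epithelium were present in every library (8 of 8 markers above 1 FPKM, summed level 4923 to 6616 FPKM). KRT8, KRT18, ALDH1A1 and AKR1B10 were the highest. EPCAM ran from only 2.20 to 5.53 FPKM, CDH1 from 8.71 to 34.8 and KRT19 from 10.2 to 76.8. Of 8 fibroblast markers 6 averaged under 1 FPKM and DCN was listed at 0 throughout. COL1A1 ran from 6.599 to 9.37 FPKM (mean 7.84) and THY1 from 0.189 to 5.89 (mean 2.301). Summed levels were 10.4 to 16.3 FPKM with the control siRNA, 8.53 to 10.7 with the knockdown and 8.53 to 16.3 over all libraries.

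For GIT1 and PDGFB the sequences below show what the switches change, because they carry the exon and the coding starts on which the results turn. The GIT1 exon of 27 bases is printed with the bases before and after it (chr17:29578942-29579028, minus strand, GRCh38), exon in capitals, followed by the next exon with its upstream bases (chr17:29578753-29578819, exon in capitals). The joined messages with and without the small exon come next, with the 27 bases in capitals.
GIT1 27-base exon: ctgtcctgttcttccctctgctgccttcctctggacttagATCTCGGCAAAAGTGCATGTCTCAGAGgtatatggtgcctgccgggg
GIT1 next exon: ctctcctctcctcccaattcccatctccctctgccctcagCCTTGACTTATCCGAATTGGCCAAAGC
GIT1 ENST00000394869, exon joined: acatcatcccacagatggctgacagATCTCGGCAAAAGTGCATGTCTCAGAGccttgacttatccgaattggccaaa
GIT1 ENST00000225394, exon skipped: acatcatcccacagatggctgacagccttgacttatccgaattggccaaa
Both introns end in AG. The base before that AG, position -3, was T ahead of the small exon and C ahead of the next one. Of the 20 bases before the AG, 15 were pyrimidines ahead of the small exon and 18 ahead of the next exon. With 27 bases the exon keeps the reading frame.

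In PDGFB the alternative first exons give different coding starts, which are printed here up to their joint continuation in the next exon. The part in capitals is specific to each message and the lower-case part is shared (chr22:39235845-39243963 and chr22:39235845-39240872, minus strand, GRCh38, intron left out).
PDGFB ENST00000331163, upstream first exon: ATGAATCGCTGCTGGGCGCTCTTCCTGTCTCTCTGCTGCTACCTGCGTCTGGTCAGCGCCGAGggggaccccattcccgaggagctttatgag
PDGFB ENST00000381551, downstream first exon: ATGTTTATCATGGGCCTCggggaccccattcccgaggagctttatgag
The upstream start encodes the signal peptide of the PDGF-B precursor, the stretch that takes a secreted protein into the secretory pathway. The complete coding sequence had 723 bases in the upstream form and 678 bases in the downstream form. All sequences were read from GENCODE transcripts.

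PDGFB, the ligand among the 4 genes, was nearly without its downstream first exon in the knockdown. The gene (ENSG00000100311, chromosome 22, 39619364 to 39640756, GRCh37) has 4 isoforms in the tables, and 2 of them made up at least 92.9% of its FPKM in every library. The downstream form, ENST00000381551, was at 40.5% and 44.4% of the gene with the control siRNA and at 0.981% and 5.86% with the siRNA against U2AF1. Untreated cells stood at 31.8% and 37.2%, so the knockdown libraries lay under all others. On re-expression the share was 28.3% and 24.7% with wild-type v1, 28.8% and 32.5% with v1 S34F, 24.1% and 30.3% with wild-type v3, and 27.5% and 23.5% with v3 S34F. All 8 construct libraries were thus above the knockdown and below every control siRNA and untreated library except for the overlap of v1 S34F replicate 2 with untreated replicate 1.

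The level of the form itself followed. ENST00000381551 was estimated at 2.58 and 3.26 FPKM with the control siRNA (deposited confidence bounds 1.59 to 3.56 and 2.12 to 4.41). In the knockdown it was at 0.0632 and 0.319 FPKM, where the bounds ran from 0 to 0.262 and from 0 to 0.678. The bounds of the knockdown and those of the control siRNA did not overlap. In these same libraries ENST00000331163, the form with the signal peptide exon, was at 3.79 and 4.09 FPKM with the control siRNA and at 5.92 and 4.86 with the knockdown. Being bulk RNA, the data could not tell fewer cells with a transcript from less of it per cell.

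**Figure D1:**
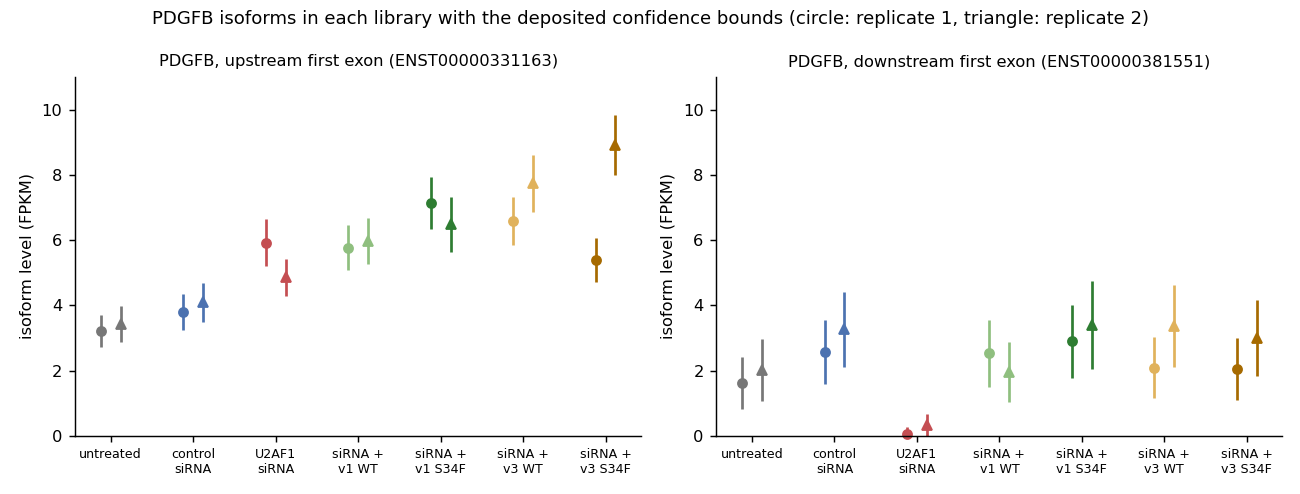
Levels of the main PDGFB isoforms (FPKM, vertical axis) in each library of the 7 groups (horizontal axis), with vertical lines for the deposited confidence bounds. The downstream form is at 0.0632 and 0.319 FPKM with the U2AF1 siRNA and at 1.62 FPKM or more in every other library, while the upstream form is at 4.86 and 5.92 FPKM with that siRNA.

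Total PDGFB was low and moved differently from its isoforms. Untreated cells had 5.09 and 5.44 FPKM, the control siRNA 6.36 and 7.35, and the knockdown 6.44 and 5.44, so the knockdown overlapped the control. The construct groups had 8.91 and 7.92 FPKM with wild-type v1, 10.0 and 10.4 with v1 S34F, 8.68 and 11.1 with wild-type v3, and 7.44 and 12.8 with v3 S34F. Each of these 8 libraries lay above each of the other 6, as was so for 228 of 14233 genes (1.6%). Ordered by mean, the groups ran from untreated (5.27 ± 0.246) over knockdown (5.94 ± 0.709), control siRNA (6.86 ± 0.700), wild-type v1 (8.42 ± 0.697), wild-type v3 (9.89 ± 1.72) and v3 S34F (10.1 ± 3.77) to v1 S34F (10.2 ± 0.293). Untreated cells and the knockdown met at 5.44 FPKM, the knockdown overlapped the control siRNA, the control siRNA and wild-type v1 did not overlap, and the v3 groups and v1 S34F overlapped one another.

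FGFR1, the receptor, differed in the part that lies outside the cell. Its exon of 267 bases (chr8:38429682-38429948, GRCh38) encodes the first immunoglobulin-like loop, and receptors with and without that loop are known as alpha and beta forms, of which the beta form binds FGF more tightly. Untreated cells had this exon in 31.9% and 33.4% of the FPKM, and control siRNA libraries in 26.6% and 28.3%. After the knockdown it was 69.6% and 63.6%. The construct libraries ran from 38.7% to 44.2%, between the controls and the knockdown and overlapping neither. Wild type and S34F were alike in range, at 39.5% to 44.2% for the 4 wild-type libraries and 38.7% to 42.2% for the 4 S34F libraries.

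The isoforms behind this share were spread over several transcripts. FGFR1 (ENSG00000077782, chromosome 8, 38268656 to 38326352, GRCh37) has 40 isoforms in the tables, of which 23 averaged under 1% of the gene. ENST00000356207, a beta form, had 22.5% and 17.4% usage with the control siRNA and 7.02% and 6.12% with the knockdown. ENST00000326324, also a beta form, went from 17.1% and 16.1% to 5.27% and 8.51%. Forms with the loop were higher in the knockdown, with ENST00000532791 at 20.4% and 16.1% against 10.7% and 10.7%, and ENST00000397108 at 10.8% and 12.6% against 1.82% and 2.13%. ENST00000397091, a further alpha form, stood at 9.50% and 14.3% against 7.39% and 5.52%. None of these 5 isoforms, picked from the 40 for that difference, overlapped between the knockdown and the control siRNA. Of all 41727 isoforms with a usage of 5% to 95%, 17383 (41.7%) did not overlap either, so nothing is read from this.

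**Figure D2:**
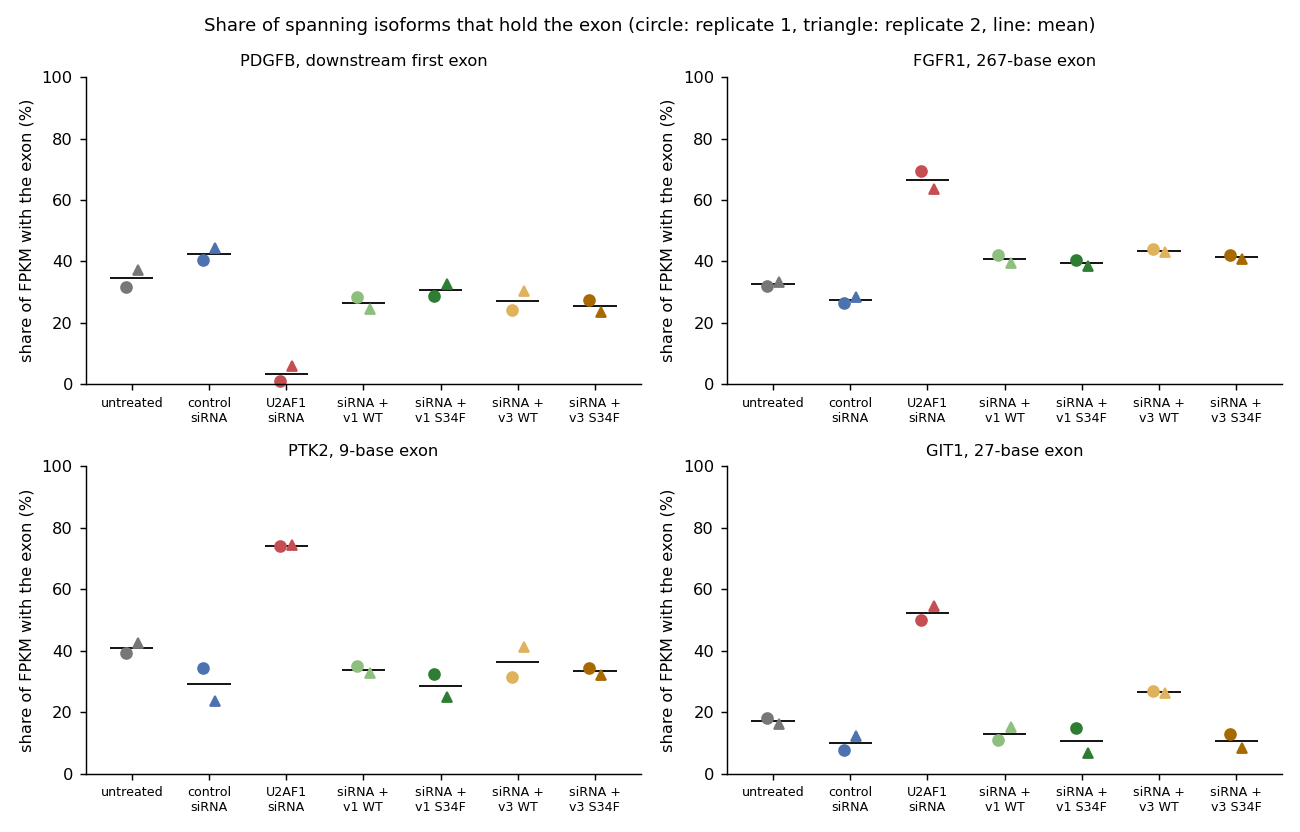
Share of FPKM from isoforms that hold the exon, in percent (vertical axis), for the exons that carry the switch in each gene, by library and group (horizontal axis). In the knockdown the 267-base exon of FGFR1, the 9-base exon of PTK2 and the 27-base exon of GIT1 are above all other libraries, and the downstream first exon of PDGFB is below all others.

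A second choice in FGFR1 lies in the third loop, which is made with either of 2 mutually exclusive exons, IIIb or IIIc. The choice sets which FGFs the receptor binds, and IIIb forms are typical of epithelia and IIIc forms of mesenchyme. Among isoforms that use either acceptor, IIIb made up 24.05% and 22.1% in untreated cells, 14.3% and 14.5% in the control siRNA libraries, and 1.92% and 2.33% after knockdown. Wild-type v1 had 29.2% and 41.9%, v1 S34F 44.5% and 59.8%, wild-type v3 16.4% and 22.2%, and v3 S34F 24.1% and 31.3%. Within each construct the S34F libraries lay above the wild-type ones, and for each allele the v1 libraries lay above the v3 ones. Over all genes, 25940 internal exons with a mean share of 5% to 95% were measured. Of these, 1612 (6.21%) showed the former pattern and 676 (2.61%) the latter. Those are shares of all spanning isoforms, whereas the IIIb share is a choice between 2 acceptors, so the measures are unlike. Pooled over constructs, wild type (16.4% to 41.9%) and S34F (24.1% to 59.8%) overlapped.

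The IIIb share rests on 2 isoforms, of which ENST00000464163 is a 545-base transcript with a retained intron that uses the IIIb acceptor. Its usage was 11.1% and 15.9% with wild-type v1, 19.8% and 27.6% with v1 S34F, 6.68% and 10.5% with wild-type v3, and 6.83% and 13.03% with v3 S34F. The averaged difference of S34F from wild type was 5.79 points (SE 2.41, adjusted p = 0.378, limma), higher in v1 but overlapping in v3. The coding IIIb form ENST00000397103 was at 7.71% and 6.15% with the control siRNA and at 0.652% and 0.675% with the knockdown. It was at 10.4% and 13.4% with wild-type v1 and 12.7% and 16.9% with v1 S34F, which overlapped. In v3 it was at 6.55% and 6.18% as wild type and 10.8% and 9.82% as S34F, without overlap. With S34F it differed from wild type by 3.40 points (SE 1.90, adjusted p = 0.555). Neither passed the test.

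An exon of 144 bases in FGFR1 (chr8:38429247-38429390, GRCh38) separated S34F from wild type. It is held by ENST00000484370 and ENST00000487647, which are annotated as targets of nonsense-mediated decay, the pathway that degrades messages with early stop codons. Wild-type v1 had 6.39% and 6.50% of the FPKM with this exon and wild-type v3 6.04% and 7.08%, against 13.7% and 13.3% with v1 S34F and 11.3% and 16.2% with v3 S34F. The 4 S34F libraries did not overlap the 4 wild-type ones, with or without replicate 2 of v1 S34F, the library in which a short isoform dominated. Of the 25940 exons, 891 (3.43%) were at least 5 points higher with S34F with no overlap between 4 and 4 libraries. Untreated cells had 2.78% and 3.32%, the control siRNA 3.60% and 4.98% and the knockdown 1.51% and 4.16%.

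**Figure D3:**
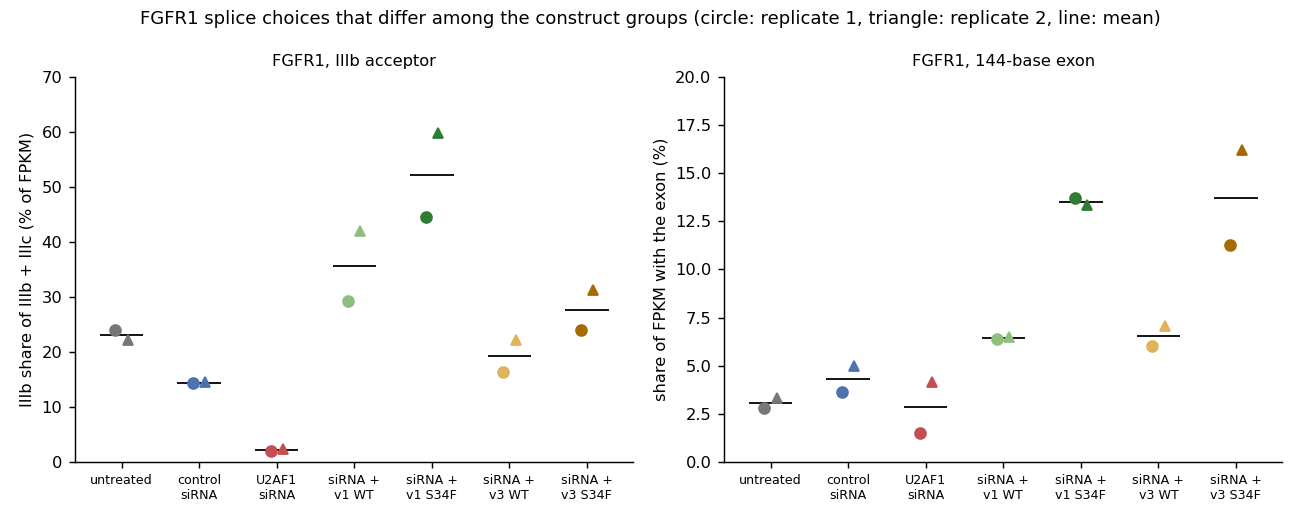
FGFR1 splice choices by library (vertical axes in percent of FPKM, groups on the horizontal axis): left, IIIb among isoforms that use the IIIb or IIIc acceptor; right, share of the 144-base exon. The IIIb share is lowest in the knockdown (1.92% and 2.33%), and the 144-base exon is at 11.3% to 16.2% in the S34F libraries against 6.04% to 7.08% with wild type.

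By annotated type, the 3 FGFR1 isoforms marked for nonsense-mediated decay summed to 4.98% and 4.48% of the gene with wild-type v1 and 8.82% and 9.05% with v1 S34F. With v3 they were at 5.26% and 6.21% as wild type and 8.85% and 11.1% as S34F. The 13 retained-intron isoforms took 17.1% and 30.4% of the gene in untreated cells, 16.5% and 24.7% under the control siRNA and 19.4% and 24.2% in the knockdown. They were at 31.4% and 40.4% with wild-type v1, 38.9% and 46.0% with v1 S34F, 22.2% and 31.9% with wild-type v3 and 25.6% and 37.4% with v3 S34F. The v1 libraries were above those without a construct, at the closest 31.4% against 30.4%, and wild-type v3 overlapped untreated cells and the control siRNA. One of the 13, ENST00000466021, had 4.91% and 8.804% usage under the control siRNA and 2.65% and 3.497% in the knockdown. Untreated cells had 3.06% and 5.16%. It was at 7.88% and 13.3% with wild-type v1 and 11.7% and 10.99% with v1 S34F, which overlapped. In v3 it was at 4.62% and 3.46% as wild type and 7.83% and 8.31% as S34F, without overlap. S34F differed from wild type by 2.39 points (SE 1.71, adjusted p = 0.687, limma) and was not called. A choice between donors 6 bases apart in FGFR1 lay between 39.9% and 49.9% in all 14 libraries, with a knockdown difference of -2.28 points. With protein-coding isoforms of the basic set alone that difference was -9.69 points, with the knockdown at 35.6% and 43.1% against a mean of 49.1% with the control siRNA.

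The level of FGFR1 was 178.8 and 158.1 FPKM with the control siRNA and 118.6 and 86.6 with the knockdown, or 0.609 times the control, without overlap, as was so for 3805 of 14233 genes (26.7%) in that direction. Untreated cells had 169.1 and 146.4 FPKM. Wild-type v1 stood at 134.3 and 148.4 FPKM, v1 S34F at 129.0 and 172.4, wild-type v3 at 110.7 and 104.9, and v3 S34F at 119.4 and 111.7. Every v3 library was below every v1 library, a pattern of 86 of the 14233 genes (0.604%), and all v3 libraries lay within the range of the knockdown or within 1 FPKM of its upper end. In order of means the control siRNA (168 ± 14.6), untreated cells (158 ± 16.1), v1 S34F (151 ± 30.7) and wild-type v1 (141 ± 9.93) formed a series in which each overlapped its neighbour, followed by v3 S34F (116 ± 5.46), wild-type v3 (108 ± 4.10) and the knockdown (103 ± 22.7).

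**Figure D4:**
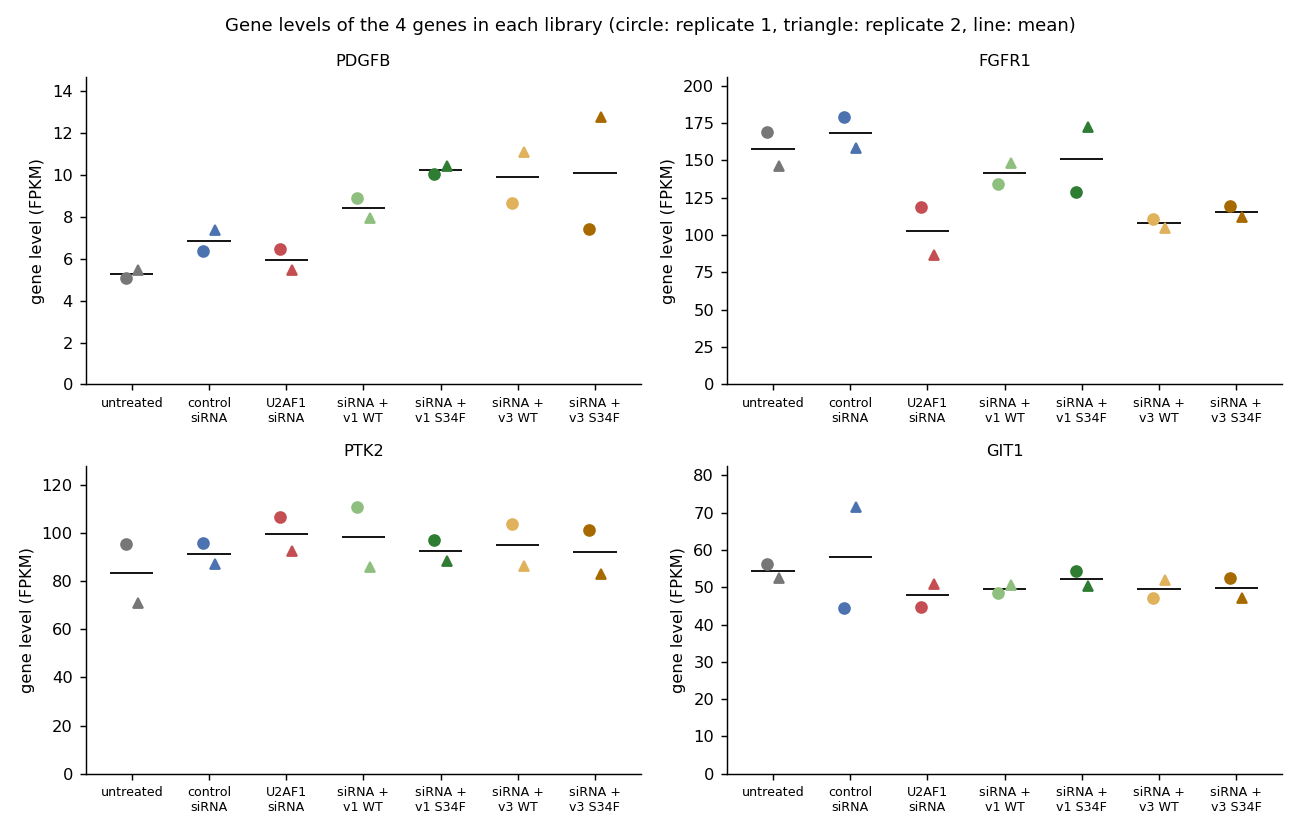
Gene levels (FPKM, vertical axes from 0) of PDGFB, FGFR1, PTK2 and GIT1 in each library by group (horizontal axis). PDGFB is at 7.44 FPKM or more in all construct libraries and at most 7.35 elsewhere, FGFR1 is lower with the U2AF1 siRNA than with the control siRNA, and the groups overlap for PTK2.

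PTK2, the kinase of focal adhesions, held more of its 9-base exon in the knockdown, while its level overlapped between groups. The 9-base exon (chr8:140669727-140669735, GRCh38) adds 3 residues near the focal adhesion targeting domain and is known from the neuronal FAK+ form. Its share was 39.5% and 42.4% in untreated cells, 34.5% and 23.8% in the control siRNA libraries, and 74.1% and 74.4% after knockdown. The 8 construct libraries ran from 24.8% to 41.3% and overlapped both kinds of control. An exon end that adds 30 bases just upstream was used at 37.5% and 34.5% in the knockdown and at no more than 19.1% in the other 12 libraries.

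Other short exons of PTK2 lay closer to the controls. The 18-base exon, one of the inserts that flank the autophosphorylation site in neuronal FAK, stood at 33.7% and 36.9% in the knockdown and 21.5% to 32.2% elsewhere. The 21-base exon, its companion, was at 21.4% and 23.0% in the knockdown, within the 12.3% to 28.2% of the other libraries.

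The leader of PTK2, the part before the coding region, differed in the same libraries. A leader exon of 78 bases (chr8:140984078-140984155, GRCh38) had a share of 48.0% and 55.7% with the control siRNA and 16.7% and 14.6% with the knockdown, against 29.9% to 55.7% in the 12 other libraries. The leader exon of 89 bases (chr8:140925661-140925749) was at 40.2% and 37.1% in the knockdown and 6.65% to 22.9% elsewhere. These exons are not independent. ENST00000340930 holds the 89-base leader, the 30-base extension and the 9-base exon, and is the only matched isoform with that extension. ENST00000521059 is the only matched isoform with the 78-base leader, and it lacks the 9-base exon. The shares of the extension and of the 78-base leader are thus single-isoform estimates. In usage, ENST00000340930 was at 4.42% and 0.119% with the control siRNA and 22.5% and 18.9% with the knockdown, and ENST00000521059 at 31.7% and 38.5% against 11.5% and 9.02%. The sizes depended on which isoforms were counted. With protein-coding isoforms of the basic set alone, the knockdown difference was 49.0 points for the 89-base leader in place of 20.03, 56.3 for the 30-base extension in place of 31.8, and -55.6 for the 78-base leader in place of -36.2.

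With re-expression ENST00000521059 came to 30.1% and 22.1% with wild-type v1, 32.04% and 26.3% with v1 S34F, 34.9% and 22.0% with wild-type v3, and 30.01% and 21.4% with v3 S34F. All 8 values lay above the knockdown, and 6 of them lay below both control siRNA libraries, while replicate 1 of v1 S34F and of wild-type v3 lay between these. ENST00000519993, annotated for nonsense-mediated decay, was at 14.2% and 13.6% in the knockdown and 9.60% and 7.33% with the control siRNA, but the construct groups (10.0% to 13.97%) reached the knockdown values. ENST00000395218, whose structure could not be matched, differed little, at 9.97% and 6.29% with the control siRNA and 6.29% and 5.95% with the knockdown.

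A leader exon of 58 bases in PTK2 (chr8:140948666-140948723, GRCh38) was lower with S34F than with wild type. It was at 24.2% and 26.1% with wild-type v1 and 18.1% and 22.0% with wild-type v3, and at 9.99% and 17.6% with v1 S34F and 12.5% and 14.8% with v3 S34F. The groups of 4 did not overlap, as was so for 1409 of the 25940 exons (5.43%) at 5 points or more in that direction. Leaving out v1 S34F replicate 2, the highest of the S34F values, leaves 9.99% to 14.8%. Of the isoforms that hold it, ENST00000524040, a 475-base fragment, had 11.1% and 7.27% usage with wild-type v1, 3.50% and 2.70% with v1 S34F, 6.98% and 7.89% with wild-type v3, and 4.13% and 4.44% with v3 S34F. The averaged difference was -4.63 points (SE 1.54, adjusted p = 0.248, limma), the same sign in all 4 pairs of replicates but not past the test. ENST00000520045, chosen after its values were seen, was at 6.92, 2.43, 5.63 and 2.80 FPKM in the wild-type libraries and was estimated at essentially 0 in the 4 S34F libraries. An estimate at 0 can be a failed split between similar isoforms.

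The level of PTK2 (ENSG00000169398, chromosome 8, 141667999 to 142012315, GRCh37, 58 isoforms) was 95.6 and 71.0 FPKM in untreated cells, 95.8 and 87.1 in the siRNA control and 106.7 and 92.4 after knockdown. It ran from 82.9 to 111.0 FPKM over the 8 construct libraries. All groups overlapped their neighbours. The 55 isoforms with a matched structure held 75.4% to 90.5% of PTK2, and the exon shares leave out the rest.

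GIT1, the scaffold, held more of the 27-base exon printed above in the knockdown. The exon's share was 18.2% and 16.3% in untreated cells, 7.82% and 12.2% in the siRNA control, and 49.9% and 54.5% with the knockdown. With wild-type v1 it was 10.9% and 15.1% and with v1 S34F 14.8% and 6.77%, near or within the range of the controls. Wild-type v3 had 26.9% and 26.3%, above all untreated and control libraries, while v3 S34F had 13.01% and 8.42%. The v3 S34F libraries lay below the wild-type v3 ones, as they did for 5376 of the 25940 exons (20.7%), and the v1 groups overlapped. For ENST00000394869, the main isoform with the exon, the S34F effect in v3 minus that in v1 was -12.9 points (SE 7.65, adjusted p = 1 by limma), so a difference between constructs did not pass the test.

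GIT1 (ENSG00000108262, chromosome 17, 27900487 to 27921072, GRCh37) has 15 isoforms, and 4 of them held 79.4% to 94.1% of it. ENST00000225394, without the small exon, was at 83.1% and 53.0% with the control siRNA and 40.2% and 30.01% with the knockdown. ENST00000394869, with it, was at 4.16% and 0.00814% against 23.9% and 36.1%. ENST00000581348, the other long form with the exon, was divided unevenly, at 3.00% and 8.61% against 17.5% and 5.17%. In the knockdown the share of the exon was steadier between replicates than either isoform. With the control siRNA it was not steadier than ENST00000394869. The control siRNA libraries of GIT1 differed from each other, with the fragment ENST00000578266 at 0.411% in replicate 1 and 25.2% in replicate 2 and the gene at 44.4 and 71.7 FPKM. Outside that group GIT1 ran from 44.8 to 56.2 FPKM, the knockdown (44.8 and 50.8) included.

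Each of the 3 leading internal exons (FGFR1, PTK2 and GIT1) was at least 20 points higher in the knockdown with no overlap with the control siRNA, at 39.1, 45.1 and 42.2 points. Without knockdown replicate 1, in which MIR1260B was high, the remaining knockdown library stood at 63.6%, 74.4% and 54.5%, still above all 12 other libraries. Among all 25940 exons measured this way 282 (1.09%) met that mark, and 654 (2.52%) were that much lower. Exons of up to 30 bases met it in 21 of 468 cases (4.49%) on the higher side and in 10 cases (2.14%) on the lower side, against 1.02% and 2.53% of the exons over 30 bases. Over all isoforms, limma called the usage of 54 of 41727 (0.129%) in the knockdown and 114 (0.273%) on wild-type re-expression. The 4 genes were chosen for changes in these comparisons, so their own calls are not given and nothing is read from the count of exons.

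Comparisons that the choice of genes did not use as such were tested. Their libraries, those of the wild-type and S34F constructs included, were among those looked at for the choice. The tests are therefore not independent of it. The control siRNA with empty vector was set against untreated cells to measure the procedure itself, although the control libraries also took part in the choice. Of the 4 genes none was called by limma, with log2 changes of 0.05 to 0.32 (lowest adjusted p = 0.977), and 0 had an unadjusted p under 0.05. Over all genes 0 of 14233 (0.0%) were called. Of 18 isoforms tested, 0 were called and 1 had an unadjusted p under 0.05, with 4 of 41727 (0.00959%) called over all isoforms. That was PTK2 ENST00000521059, at 23.8% and 16.8% in untreated cells and 31.7% and 38.5% with the control siRNA, a difference of 14.7 points (SE 5.72, adjusted p = 0.952) in the direction opposite to the knockdown.

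S34F against wild type, averaged over v1 and v3, called none of the 4 genes, where 264 of 14233 genes (1.85%) were called. The log2 difference was 0.13 for PDGFB (SE 0.15, adjusted p = 0.762), 0.09 for FGFR1 (SE 0.12, adjusted p = 0.786), 0.04 for GIT1 (SE 0.13, adjusted p = 0.918) and -0.06 for PTK2 (SE 0.13, adjusted p = 0.874). Of 18 isoforms 0 were called and 2 had an unadjusted p under 0.05, the FGFR1 fragment ENST00000464163 and the PTK2 fragment ENST00000524040 given above, where 284 of 41727 isoforms (0.681%) were called. The largest mean difference, 6.96 points in GIT1 ENST00000225394, had an SE of 6.42. The main PDGFB isoforms differed by -2.54 and 1.23 points (SE 3.39 and 2.98). The difference between the S34F effects in v3 and in v1 called 0 genes and 0 isoforms in limma, members included (0.0% of each), with 101 genes and 1325 isoforms at an unadjusted p under 0.05 and none of the members among them.

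Genes of the surrounding pathways were taken from 5 lists. In the list of integrins and focal adhesion proteins, the setting in which PTK2 and GIT1 work, 7 of 40 tested genes fell in the knockdown and 0 rose, with a median log2 change of -0.31 against -0.01 over all genes, of which 405 (2.85%) were called. ITGA3, the alpha chain of a laminin-binding integrin, fell from 165 ± 21.7 to 68.2 ± 6.52 FPKM with a log2 change of -1.26 (SE 0.12, adjusted p = 0.0017). ITGA2, the alpha chain of a collagen receptor, fell from 8.52 ± 2.41 to 2.96 ± 0.549 FPKM with a log2 change of -1.25 (SE 0.21, adjusted p = 0.019). VASP, an actin regulator of focal adhesions, fell from 65.4 ± 8.78 to 41.2 ± 0.448 FPKM with a change of -0.65 (SE 0.12, adjusted p = 0.025). The control siRNA libraries had in turn been above untreated cells in 37 of the 40 genes (median 0.22, 0 called and 5 with an unadjusted p under 0.05), and ITGA3 was at 116 ± 10.4 FPKM in untreated cells.

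**Figure D5:**
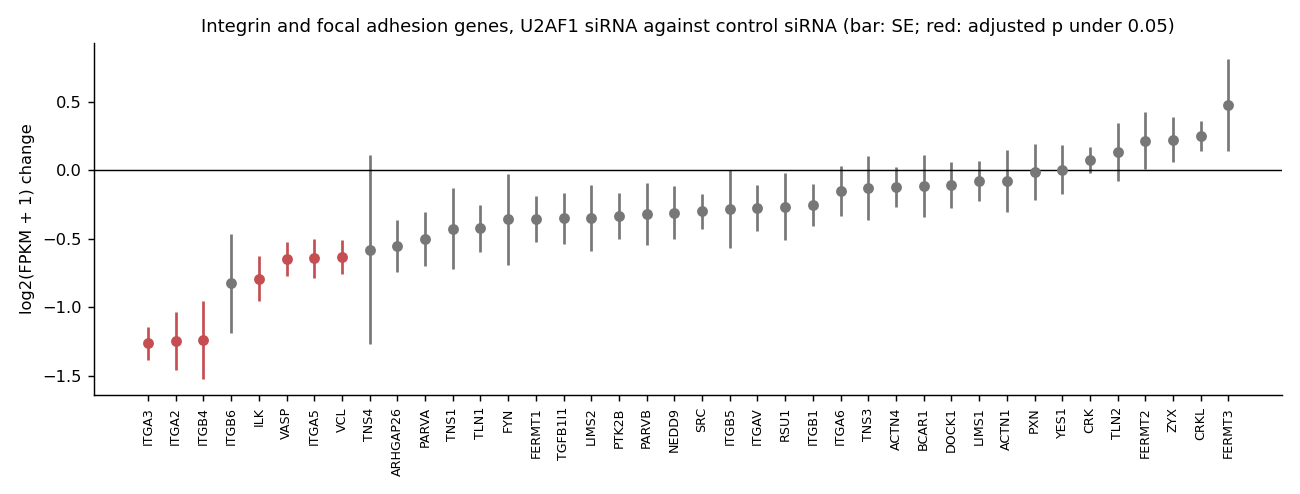
Log2(FPKM + 1) change with the U2AF1 siRNA against the control siRNA (vertical axis, bars are SE) for the 40 tested integrin and focal adhesion genes (horizontal axis, sorted), with genes of adjusted p under 0.05 in red. ITGA3, at -1.26, and the other 6 called genes lie below 0.

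With a replicate block 9 adhesion genes fell in the knockdown and 0 rose. The count of falls was 7 with a pseudocount of 0.1 or upper quartile scaling, and 4 without the filter on low values. The adhesion count depended on single libraries. It was 3 without replicate 1 of the control siRNA and 1 without its replicate 2, and 1 without either replicate of the knockdown. ITGA3 passed in all of these (adjusted p 0.0058 to 0.026), ITGA2 in none (0.053 to 0.16), and VASP only without control replicate 1. With wild-type re-expression ITGA3 rose, to 132 ± 0.321 FPKM with v1 and 143 ± 5.06 with v3 (log2 1.01, adjusted p = 0.0034, or 0.069 without knockdown replicate 2). It was the only adhesion gene called there, where 203 genes (1.43%) were called in all, and 4 rose with a replicate block.

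In the GIT, PIX and PAK list, 1 of 15 genes fell in the knockdown. This was ARHGEF7, which encodes the beta-PIX exchange factor that binds GIT1, from 15.7 ± 0.153 to 9.90 ± 0.167 FPKM (log2 -0.61, SE 0.14, adjusted p = 0.046), and the call was lost without any of the 4 libraries (0.11 to 0.21). In the list of PDGF and VEGF ligands, receptors and processing enzymes, 2 of 14 fell. FLT4, a VEGF receptor, fell from 4.41 ± 0.251 to 1.62 ± 0.111 FPKM (adjusted p = 0.040), and FURIN, a protease that cleaves proproteins including PDGF chains, from 16.8 ± 1.46 to 9.57 ± 0.335 FPKM (adjusted p = 0.041). Neither passed when any library was left out, with counts of 0. Without the filter on low values ARHGEF7, FLT4 and FURIN all missed the threshold (adjusted p = 0.063, 0.095 and 0.073 by limma). A replicate block gave 4 falls in this list, and 1 rise and 1 fall in the GIT list.

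PDGFRB and PDGFRA, the receptors for PDGFB, averaged 0.218 and 0.336 FPKM over the libraries and were not tested. The list of FGF receptors, ligands and feedback genes does not hold FGFR1 itself. Of its 17 tested genes limma called 0 in the knockdown, with 4 at an unadjusted p under 0.05. Of 30 in the list of adaptors and the Ras to ERK cascade it called 0, with 4 at that p. With a replicate block each of these lists had 1 rise and 1 fall, and upper quartile scaling gave 1 rise in the Ras list. Re-expression of wild type called 0 genes in the FGF, PDGF, GIT and Ras lists (2, 3, 1 and 4 at an unadjusted p under 0.05). In the GIT list the lowest adjusted p was 0.051 by limma, and a pseudocount of 0.1 or upper quartile scaling gave 1 call. A replicate block gave 2 in the PDGF list, 1 in the GIT list and 3 in the Ras list.

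With S34F, PDGFD, another ligand of the PDGF family, fell with a log2 change averaged over constructs of -1.07 (SE 0.21, adjusted p = 0.030). In v1 it was at 17.5 ± 1.23 FPKM as wild type and 6.59 ± 2.76 as S34F, and in v3 at 15.8 ± 1.83 and 8.89 ± 3.71. FERMT3, the kindlin of blood cells that activates integrins, rose by 1.21 on that scale (SE 0.24, adjusted p = 0.031), with 1.03 ± 0.316 FPKM against 4.08 ± 1.83 in v1 and 1.16 ± 0.916 against 3.57 ± 0.133 in v3. Each call was lost when any of 6 of the 8 libraries was left out (adjusted p 0.068 to 0.12). PDGFD passed without replicate 1 of v1 S34F or of v3 S34F, and FERMT3 without replicate 1 of v1 S34F or replicate 2 of wild-type v3. With no filter on low values both missed the threshold (adjusted p = 0.082 for PDGFD and 0.087 for FERMT3 by limma). The summed level of leukocyte and endothelial markers, nearly all of it CD68 and CD14, was 26.6 to 41.5 FPKM with wild type and 41.3 to 62.4 with S34F, while the other 7 markers found averaged under 0.1 FPKM. The part of these cell types in the differences was not tested. A replicate block called 3 adhesion genes higher and 1 lower, and 3 PDGF genes lower. The FGF, GIT and Ras lists had 0 called by limma with S34F (5, 2 and 2 at an unadjusted p under 0.05), or 1 lower in the FGF list and 2 higher in the Ras list with the block.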

How the data were processed

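Groups and replicate numbers came from the sample labels. The submitters' processing notes name Trimmomatic 0.30, TopHat2 2.0.12 and the build GRCh37. Which program estimated the isoform levels is not given in the sources used here. The deposited tables hold, per the file headers, FPKM values with confidence bounds and a coverage value for 195553 isoforms. Coverage divided by FPKM gave the relative depth (the coverage signal is per the file headers). No counts could be recovered, so depth limits each value by an unknown amount. FPKM estimates divide reads among overlapping isoforms, and small exons are inferred from few distinguishing reads.

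Gene levels, as log2(FPKM + 1), and usage in percent were fitted with limma 3.58.1 in R 4.3.3 over all 14 libraries with a mean per group (7 residual degrees of freedom). Fold changes on this scale understate changes of low genes. Tested were genes with a mean of 1 FPKM or more (14233 genes) and isoforms with a mean usage of 5 to 95 percent (41727 isoforms). An adjusted p under 0.05 was called. The script was tested on simulated data. Of 117 isoforms of the 4 genes, 19 are named by rule, those with a mean usage of at least 5 percent or a group mean of at least 10 percent, and 18 of these were within the usage limits. ENST00000484370, ENST00000487647 and ENST00000520045 are named outside this rule. Up to 3 called genes are named per list and comparison, by adjusted p. The members, lists and tests were chosen with earlier results of these data known.

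Exon shares used isoforms whose identifier and length matched GENCODE release 29 (GRCh38). The 25940 exons compared over all genes were internal exons with a mean share of 5 to 95 percent. Their spanning isoforms had a mean of 5 FPKM or more. Background percentages are thus rates among exons already used in part, not among all exons. The replicate numbers pair libraries at the gene level: same-numbered libraries deviated together in 21 of 21 group pairs (correlations 0.160 to 0.571), which is a hint from the data, as the labels name no shared batch. For usage 10 of 21 pairs were over 0.1. Alternatives were another pseudocount, filter, scaling or transform, a replicate block, and leaving out each library. Calculations beside the fit used Python 3.11.15 and pandas 2.3.3.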

Additional observations from a re-analysis of the deposited data

How the results depend on the processing

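For the 4 genes and their isoforms, 3 comparisons were read as tests (control siRNA against untreated cells, S34F against wild type, and the difference between S34F effects). None of their 66 values was called in any of 650 alternative values (smallest adjusted p = 0.177). The values that moved by more than their SE in the main fit did so when single libraries were left out. Among them was GIT1 with the control siRNA against untreated cells (log2 0.39 without control siRNA replicate 1 and -0.28 without its replicate 2). Counts over all features were less stable. With a replicate block, genes called were 1136 in place of 264 for S34F, 1681 in place of 405 for the knockdown, 1070 in place of 203 for wild-type re-expression and 2 in place of 0 for the control siRNA, where isoforms called were 1 in place of 4. Without a filter on low values genes called were 241 for the knockdown, 19 for the control siRNA and 15 for the difference between S34F effects, and a pseudocount of 0.1 gave 1 for the last. Requiring 5 FPKM gave 540 isoforms for S34F in place of 284, 112 for the knockdown in place of 54, 235 for re-expression in place of 114, and 1 for the control siRNA. The arcsine transform gave 13, 51 and 0 for these last 3. Leaving out each library gave 47 to 332 genes and 7 to 419 isoforms for S34F, 15 to 274 and 5 to 59 for the knockdown, 5 to 57 and 6 to 86 for re-expression, 2 to 7 and 7 to 27 for the control siRNA, and 1 to 6 and 2 to 11 for the difference between S34F effects. The cause of these shifts was not tested. With protein-coding isoforms of the basic set alone, an alternative added after seeing the data, the knockdown differences were 46.3 points for the FGFR1 loop exon, 55.4 for the 9-base exon of PTK2, 43.2 for GIT1 and -38.8 for PDGFB. The shares that moved by over 1.5 times were the 89-base leader (49.0), the 30-base extension (56.3) and the 78-base leader (-55.6) of PTK2 and the 6-base choice of FGFR1 (-9.69). Counting unmatched isoforms of PTK2 as lacking the 9-base exon gave 37.7 points. For the list genes named, all values kept their sign, and without the filter on low values 4 adhesion genes passed in the knockdown in place of 7, 0 PDGF genes in place of 2 and 0 GIT genes in place of 1, and with S34F 0 adhesion and 0 PDGF genes in place of 1 each.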

Other observations

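Some genes had levels that followed those of the 4 genes over the 14 libraries, named by the highest Pearson r of log2(FPKM + 1) among tested genes on other chromosomes or over 1 Mb away. The libraries share treatments and depth, so these values describe the 14 libraries only. For PTK2 they were AKAP12, a scaffold of kinase signalling (r = 0.97), WDSUB1 (0.93) and FERMT2, a kindlin of focal adhesions (0.91). FGFR1 was followed by ASIC1, a proton-gated sodium channel (0.90), SRCIN1, an inhibitor of SRC (0.89), and the kinase LRRK2 (0.89). For PDGFB they were LY6K (0.94), KCTD11 (0.93) and SESN2, a stress-induced regulator of mTORC1 (0.93). GIT1 was followed by UBAC1 (0.93), the spliceosome protein PRPF19 (0.91) and MAP7D1 (0.90).

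For usage, the isoform of each gene that differed most between knockdown and control was compared in the same way. PDGFB ENST00000381551 was followed by isoforms of ZNHIT3 (r = 0.90), PPP1R35 (0.88) and PHF19 (0.87). FGFR1 ENST00000356207 was followed by isoforms of MOK (0.90), CTSB (0.88) and CABLES1 (0.88). PTK2 ENST00000521059 was followed by MMS19 (0.93), NOD1 (0.93) and GRAMD1A (0.92), and GIT1 ENST00000225394 by DEPDC1 (0.93), ZBTB45 (0.92) and DUSP11 (0.92).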
